A study of Mus musculus with 12 samples.

Results

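The genes described here are 41 members of the interferon response, chosen by name from the 55385 rows of a bulk RNA-seq count table of mouse dorsal meninges. They comprise 4 receptor chains, 2 receptor kinases, 8 transcription factors, 3 feedback inhibitors, 5 sensors of foreign nucleic acid, 7 enzymes and modifiers of the ISG15, ubiquitin and ADP-ribose systems, and 12 other induced effectors. All 41 passed the filter on low counts, as did 18238 rows of the table. Young mice were C57BL/6J males of 10 weeks from a commercial supplier and aged mice were C57BL/6 males of 20 to 24 months from the colonies of the National Institute on Aging, so supplier and age cannot be told apart. Mice of each age received either mild traumatic brain injury (TBI) to the closed skull or a sham procedure, in which they were anaesthetised without an impact, and their meninges were collected 1.5 months later. The dorsal meninges did not include the site of impact. The groups Young Sham and Young TBI, and likewise Aged Sham and Aged TBI, had 3 libraries each, and each library pooled the RNA of 2 mice (2 to 3 by another statement of the study).

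Interferons are secreted proteins that bind paired receptor chains on nearly all cells. Type I interferon acts through IFNAR1 and IFNAR2 and the kinases JAK1 and TYK2, and interferon-gamma through IFNGR1, IFNGR2, JAK1 and JAK2. The kinases activate transcription factors of the STAT family, and a complex that holds STAT2 and IRF9 binds the interferon-stimulated response element in the promoters of target genes. Many targets are themselves parts of the pathway, such as sensors of viral RNA, the transcription factor IRF7 and the inhibitor USP18, whereas the receptor chains and kinases are present before any interferon arrives.

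Total counts per library were 8092374 to 16087717, and the 41 genes took 0.227% to 0.293% of them. Levels are given as CPM, counts scaled to a common library total, and differences as log2 fold changes ± standard error, and a gene was called when its adjusted p over all 18238 genes was under 0.1. Fibroblast markers summed to 8446 to 18190 CPM and markers of the dura and arachnoid to 1463 to 2599 CPM, as fits the labelled tissue. Bone markers summed to 749 to 1555 CPM, highest in Aged Sham 3, and neuron markers to 306 to 513 CPM. Aged Sham 3 stood apart in its pituitary markers, which summed to 1043 CPM against 4.17 to 15.8 CPM in the 11 other libraries. Aged TBI 3 stood apart in the genes described here, as set out below. The tissue is a mixture, and more cells of a type and more RNA per cell cannot be told apart in bulk libraries.

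Many induced genes were higher in aged meninges, and receptor chains and kinases were not called in any comparison. Among sham mice 20 of the 41 genes were called, 19 higher and 1 lower in aged mice, against 7.89% of all genes higher and 7.71% lower. Among injured mice 22 were called, all higher, against 9.92% of all genes higher and 10.3% lower. The 41 genes were chosen with earlier results of these data known, so these shares are a description and not a test of the set. The median log2 fold change over the 41 genes was 0.27 among sham mice and 0.29 among injured mice, where that over all genes was 0.01 and 0.02. The comparisons share no library but came from 1 fit with a shared estimate of spread. In both, 17 genes were called higher, which is 17 of 19 among sham mice and 17 of 22 among injured mice. The share of all genes called higher in both was not computed. Leaving out Aged Sham 3 gave 16 calls among sham mice (15 higher), and leaving out Aged TBI 3 gave 24 among injured mice, all higher. Among sham mice 9 were called without Young Sham 1, 11 without Aged Sham 2 and 13 without Young Sham 3. Over all genes these fits called 1874, 1741 and 1226, against 2845 with all libraries. Among injured mice 9 were called without Young TBI 1 or without Aged TBI 1, 11 without Young TBI 2 and 14 without Aged TBI 2. Over all genes these fits called 2117, 2674, 2749 and 3117, against 3683 with all libraries.

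**Figure D1:**
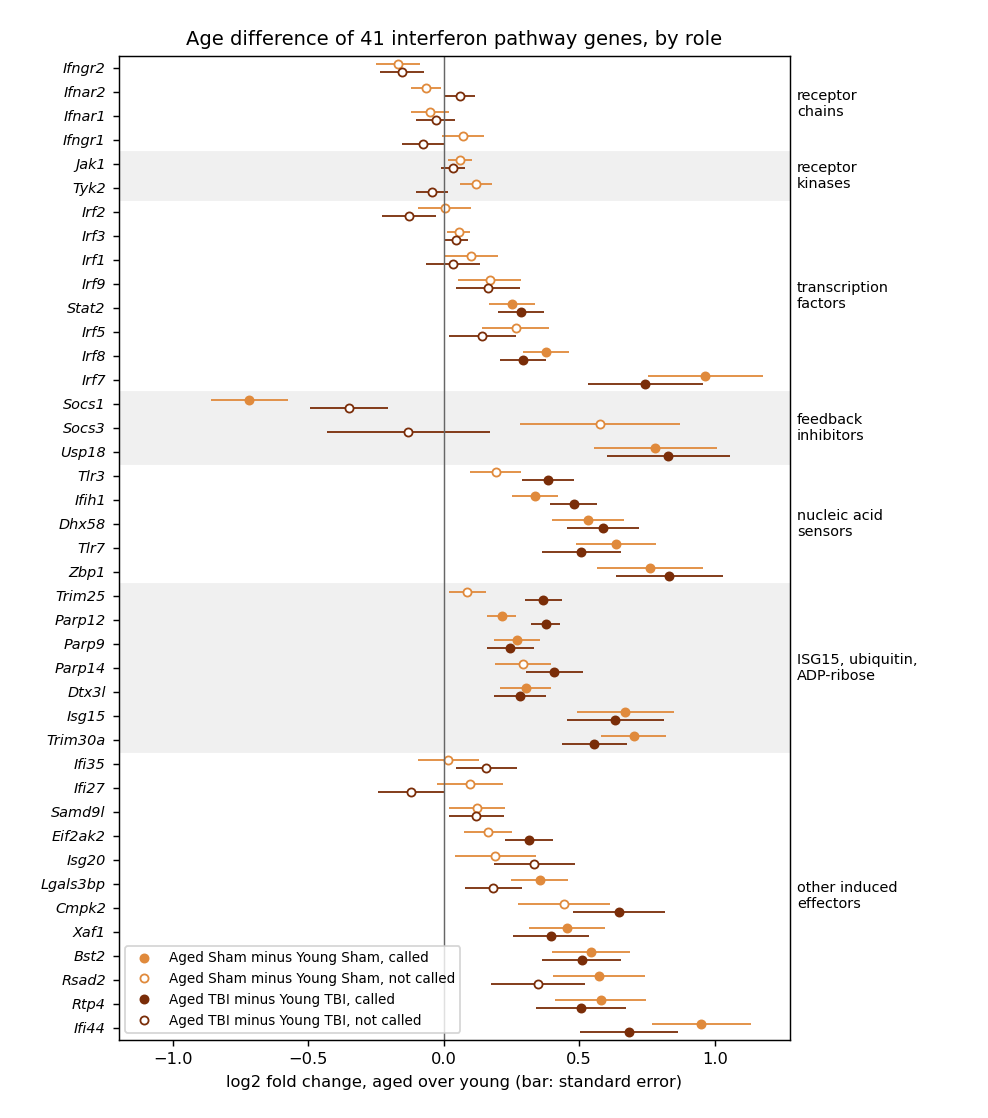
Log2 fold change of aged over young mice for the 41 genes (vertical axis, grouped by role), with bars for the standard error, in sham mice (orange) and injured mice (brown), from 3 libraries per group. Filled points were called at an adjusted p under 0.1, and none of the 6 receptor chains and kinases at the top has a filled point, whereas all 5 sensors and all 7 ISG15, ubiquitin and ADP-ribose genes have one in injured mice.

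The 6 receptor chains and kinases lay close to the same level in all 4 groups. Ifnar1, a chain of the type I interferon receptor, was at 96.7, 91.1 and 93.5 CPM in Young Sham 1 to 3, at 102, 97.9 and 84.9 CPM in Young TBI, at 88.4, 91.3 and 91.8 CPM in the Aged Sham libraries and at 97.3, 96.2 and 85.3 CPM in Aged TBI. Ifnar2, its partner chain, was at 69.1, 63.4 and 71.8 CPM, at 63.4, 64.1 and 62.5 CPM, at 65.1, 67.1 and 63.0 CPM and at 65.0, 67.7 and 65.3 CPM in the same order. For both genes the libraries of the 4 groups were interleaved, apart from Ifnar2 in Aged TBI, which lay just above Young TBI. The age difference of Ifnar1 was −0.05 ± 0.07 among sham and −0.03 ± 0.07 among injured mice, and that of Ifnar2 was −0.06 ± 0.05 and 0.06 ± 0.06.

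The receptor of interferon-gamma gave a similar picture. Ifngr1, its ligand-binding chain, was at 152, 149 and 148 CPM in Young Sham, at 157, 163 and 162 CPM in Young TBI, at 146, 144 and 181 CPM in the Aged Sham libraries and at 151, 159.9 and 146 CPM in Aged TBI. Ifngr2, the chain that brings in JAK2, was at 58.3, 65.7 and 69.5 CPM, at 65.9, 69.6 and 62.9 CPM, at 56.8, 54.3 and 61.0 CPM and at 62.3, 62.3 and 54.0 CPM. Aged Sham 3 was the highest library for Ifngr1, and the 3 Aged TBI libraries of Ifngr2 lay below the 3 Young TBI libraries. The age difference of Ifngr2 was −0.17 ± 0.08 among sham mice (adjusted p = 0.214) and −0.15 ± 0.08 among injured mice (adjusted p = 0.237).

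Both kinases of the type I receptor varied little. Jak1 was at 207, 217 and 205 CPM in Young Sham, at 223, 228 and 221 CPM in Young TBI, at 219, 216 and 220.2 CPM in the Aged Sham libraries and at 235, 225 and 227 CPM in Aged TBI. Tyk2 was at 66.9, 62.6 and 66.1 CPM, at 71.8, 67.7 and 68.1 CPM, at 69.4, 72.6 and 70.4 CPM and at 72.1, 63.0 and 66.1 CPM. Jak1 was higher in each TBI group than in the sham group of the same age without overlap, and Tyk2 was higher in Aged Sham than in Young Sham without overlap, but none of these differences was called. Over the 6 genes, the 95% intervals of the age difference ran from −0.36 to 0.26 on the log2 scale among sham mice and from −0.34 to 0.19 among injured mice. All 95% intervals given here used 8 residual degrees of freedom, fewer than the test, and are wider than the test implies. edgeR called 0 of the 6 in either comparison, with 0 at an unadjusted p under 0.05, and DESeq2 called 0 of them. With library totals alone as the scale, which raised the median of all genes among sham mice to 0.05, Tyk2 was called (0.17, adjusted p = 0.0966).

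**Figure D2:**
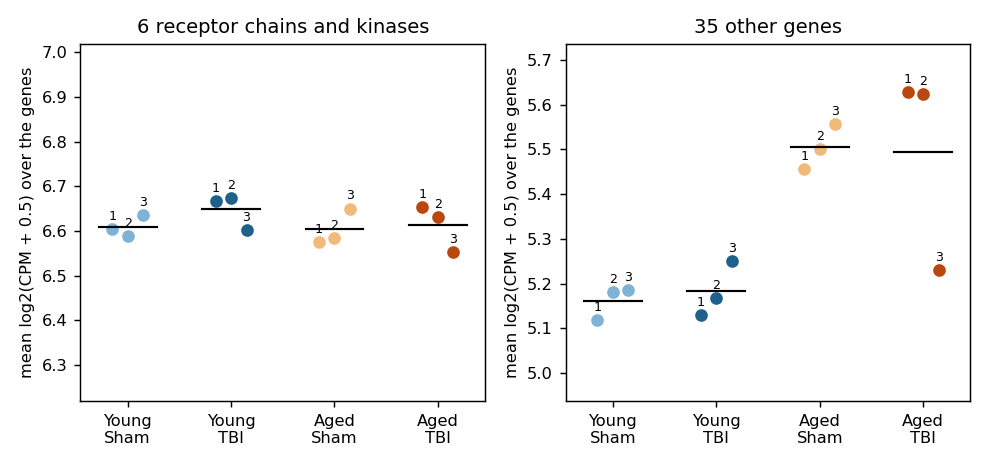
Mean log2(CPM + 0.5) per library (points, numbered 1 to 3 within each group, with a line for the group mean) over the 6 receptor chains and kinases (left) and over the 35 other genes (right), on axes of equal span. The left means lie between 6.55 and 6.67 in all 12 libraries, while on the right the Aged Sham libraries lie at 5.46 to 5.56 above all young libraries and Aged TBI 3 lies at 5.23, within the range of Young TBI.

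The 35 other genes separated the ages in sham mice but not in every injured library. Their mean log2(CPM + 0.5) was 5.12, 5.18 and 5.19 in Young Sham, 5.13, 5.17 and 5.25 in Young TBI, 5.46, 5.50 and 5.56 in Aged Sham and 5.63, 5.63 and 5.23 in Aged TBI. Aged TBI 3 had the lowest level of its group for 32 of the 35 genes and the highest for 0, and its level was a median of 0.771 times the mean of Aged TBI 1 and 2. It lay above all 3 Young TBI libraries for 19 of the 35 genes, within their range for 8 and below them for 8. Aged TBI 1 and 2 lay above all 3 Young TBI libraries for 30 of the 35, a count that sets aside the library that was low in these same genes. Shares over all genes were not computed for these counts of single Aged TBI libraries, so they have no baseline. Among sham mice 25 of the 35 genes were higher in all aged than in all young libraries, against 14.4% of all genes, and among injured mice 19 of the 35, against 18.6% of all genes. The 6 receptor chains and kinases had 1 such gene in each comparison.

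**Figure D3:**
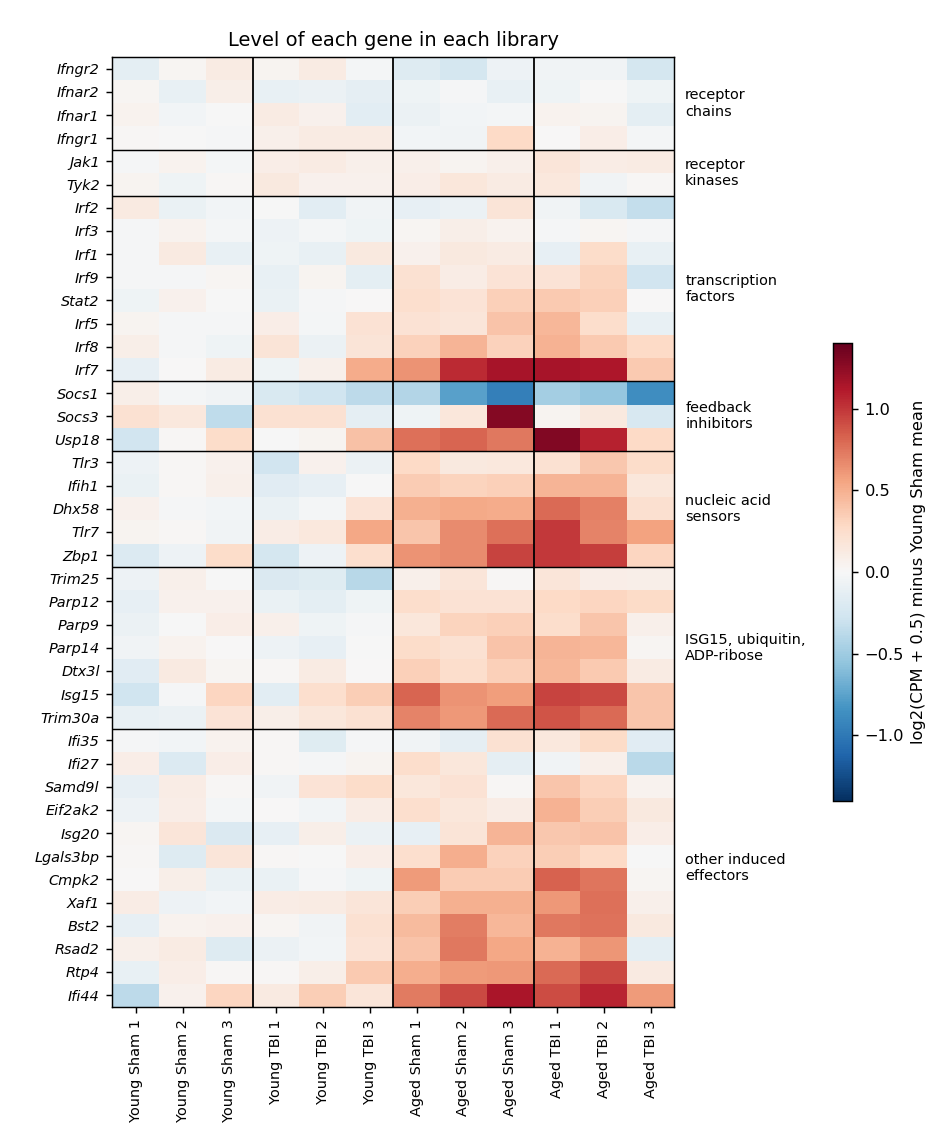
Level of each gene (rows, grouped by role) in each of the 12 libraries (columns) as log2(CPM + 0.5) minus its mean over the 3 Young Sham libraries, with red for higher and blue for lower values. Most rows below the kinases are red in Aged Sham 1 to 3 and in Aged TBI 1 and 2 and paler in Aged TBI 3, Socs1 is blue in all 6 aged libraries, and Socs3 is dark red in Aged Sham 3 alone.

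Sequence upstream of the genes was not used to choose them. Of the 41 genes, 33 had an entry in the RefSeq promoter windows of GRCm38.p6, which hold 250 bases before and 50 bases after a gene's start. The core of the interferon-stimulated response element was searched as GAAANNGAAA on both strands, and 9 of the 33 genes held it (27.3%), against 3.99% of the 27025 genes with a window. It was found in 0 of the 6 receptor chains and kinases and in 9 of the 27 other genes (33.3%). In 7 of the 9 it lay before the start, and in Ifih1 and Eif2ak2 it lay within the 50 bases after it. The core of the gamma-activated sequence, TTCNNNGAA, was held by 10 of the 33 genes (30.3%), against 9.55% of all genes, namely Ifnar1, Ifnar2, Irf1, Irf2 and Irf8, Socs3, Eif2ak2, Isg20, Bst2 and Ifi35. In Bst2 the match to this core overlaps the start of the response element core. A match is a description of the letters and not evidence of binding. Usp18, Tlr7, Dhx58, Zbp1, Parp9, Parp14, Rtp4 and Ifi27 had no entry.

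The 7 upstream matches are printed because they show the element in genes called higher with age (Isg15, Bst2, Trim30a, Stat2, Rsad2), in the gene called lower (Socs1) and in a gene called in no comparison (Irf2). Each line reads 5′ to 3′ along the gene, with up to 30 bases on either side, and capitals mark the core on either strand, with overlapping matches run together. Isg15 holds 3 overlapping matches from 78 bases upstream of the start (chr4:156200845-156200926, minus strand), Bst2 holds 2 from 130 bases upstream (chr8:71537557-71537632, minus strand) and Socs1 holds 2 from 83 bases upstream (chr16:10785574-10785649, minus strand). The others hold 1 each, in Trim30a from 36 bases upstream (chr7:104465194-104465259, minus strand), in Stat2 from 222 (chr10:128270248-128270315, plus strand), in Rsad2 from 120 (chr12:26456533-26456602, minus strand) and in Irf2 from 241 (chr8:46739495-46739543, plus strand).
Isg15: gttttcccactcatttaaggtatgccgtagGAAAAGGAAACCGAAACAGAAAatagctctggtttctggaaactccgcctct
Bst2: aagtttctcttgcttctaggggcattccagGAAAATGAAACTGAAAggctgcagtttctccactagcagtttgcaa
Trim30a: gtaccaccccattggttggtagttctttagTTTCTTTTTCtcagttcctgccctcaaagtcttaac
Stat2: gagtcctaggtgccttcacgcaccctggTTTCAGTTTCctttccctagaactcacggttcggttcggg
Rsad2: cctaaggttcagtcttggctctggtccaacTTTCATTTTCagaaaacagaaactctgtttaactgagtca
Socs1: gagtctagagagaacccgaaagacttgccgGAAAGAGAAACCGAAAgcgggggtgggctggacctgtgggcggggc
Irf2: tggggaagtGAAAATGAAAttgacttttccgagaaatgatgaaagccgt

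Of the 8 transcription factors, 3 rose with age in both comparisons and 5 were called in neither. The shares of all genes called higher were 7.89% among sham and 9.92% among injured mice. Irf7 (chr7:141262706-141266481, GRCm38, minus strand), which drives type I interferon genes and is itself induced by interferon, was at 32.3, 35.2 and 38.1 CPM in Young Sham, at 33.8, 37.0 and 50.7 CPM in Young TBI, at 54.7, 73.0 and 78.9 CPM in the Aged Sham libraries and at 78.7, 77.8 and 45.3 CPM in Aged TBI. All Aged Sham libraries were above all Young Sham libraries, whereas Aged TBI 3 lay below Young TBI 3. Irf7 was 1.95-fold higher in aged sham mice (0.97 ± 0.21, adjusted p = 0.0161), the largest log2 fold change of the 41 genes in that comparison. Among injured mice it was 0.74 ± 0.21 higher (adjusted p = 0.0381), a call that was lost without Young TBI 1, Young TBI 2, Aged TBI 1 or Aged TBI 2 (adjusted p up to 0.153).

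Irf8, a factor of macrophages, dendritic cells and B cells, was at 52.4, 48.8 and 47.5 CPM in Young Sham, at 56.2, 46.6 and 56.0 CPM in Young TBI, at 62.2, 69.1 and 61.9 CPM in the Aged Sham libraries and at 69.8, 64.0 and 60.2 CPM in Aged TBI. No aged library overlapped a young one with the same procedure, and the differences were 0.38 ± 0.08 (adjusted p = 0.0177) and 0.29 ± 0.08 (adjusted p = 0.0413, and up to 0.154 without Young TBI 2 or Aged TBI 1). Irf5, which acts downstream of Toll-like receptors, was at 28.5, 27.4 and 27.3 CPM, at 29.6, 27.3 and 31.9 CPM, at 32.0, 31.3 and 36.8 CPM and at 38.6, 33.0 and 25.9 CPM. It did not overlap between the sham groups but Aged TBI 3 was the lowest of all 12 libraries, and neither difference was called (0.27 ± 0.12 and 0.14 ± 0.12), the first being called only without Aged TBI 3 (adjusted p = 0.0886).

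Stat2, a subunit of the complex that binds the response element, was 0.25 ± 0.09 higher among sham mice (adjusted p = 0.0876) and 0.28 ± 0.09 among injured mice (adjusted p = 0.047). The call among sham mice was lost when any single library of Young Sham, Young TBI or Aged Sham was left out (adjusted p up to 0.221) and with a replicate block (0.125). The call among injured mice was lost without Young TBI 1 or 2 or Aged TBI 1 or 2 (up to 0.177). Irf9, the DNA-binding subunit of that complex, differed by 0.17 ± 0.12 and 0.16 ± 0.12 (0.30 among injured mice without Aged TBI 3, adjusted p = 0.0253). Irf1, an early target of interferon-gamma, differed by 0.10 ± 0.10 and 0.03 ± 0.10, and Irf2, which can oppose it, by 0.00 ± 0.10 and −0.13 ± 0.10. Irf3, which is latent in resting cells and is phosphorylated once nucleic acid is sensed, differed by 0.05 ± 0.04 in both.

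The 3 feedback inhibitors went different ways. Usp18 (chr6:121245906-121270917, plus strand), which removes ISG15 from proteins and blocks signalling at IFNAR2, was at 9.25, 11.3 and 13.5 CPM in Young Sham, at 11.1, 11.6 and 15.1 CPM in Young TBI, at 19.5, 20.1 and 19.1 CPM in the Aged Sham libraries and at 28.4, 24.2 and 13.8 CPM in Aged TBI. The sham groups did not overlap, and Aged TBI 3 lay within Young TBI. Usp18 rose by 0.78 ± 0.23 among sham mice (adjusted p = 0.0506) and by 0.83 ± 0.23 among injured mice (adjusted p = 0.0329). The first call was lost without Young Sham 1 or 2 or Aged Sham 2 (adjusted p up to 0.157) and the second without Young TBI 1 or 2 or Aged TBI 1 (up to 0.128).

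Socs1, an inhibitor of JAK kinases that interferon induces, was the only one of the 41 genes called lower with age. It was at 18.8, 17.4 and 17.1 CPM in Young Sham, at 15.3, 14.6 and 13.7 CPM in Young TBI, at 13.2, 10.3 and 8.92 CPM in the Aged Sham libraries and at 12.6, 12.1 and 9.51 CPM in Aged TBI. All 3 Young Sham libraries lay above all 9 others, and the aged groups overlapped each other. Socs1 fell by 0.72 ± 0.14 on the log2 scale among sham mice (adjusted p = 0.0105), a call kept in all 12 fits that left out 1 library. Among injured mice the difference was −0.35 ± 0.14 (adjusted p = 0.134). It was called lower there with a replicate block (0.066), with the injured groups alone (0.0953), without Aged Sham 1 (0.0601) and without Aged Sham 3 (0.0857). The interaction, the test of whether these age differences differ, was not called (0.37 ± 0.20, adjusted p = 0.683). The promoter of Socs1 holds 2 matches to the response element core, as printed above, while Usp18 had no window.

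Socs3, an inhibitor better known downstream of interleukin-6 receptors, was at 26.8, 25.6 and 17.9 CPM in Young Sham, at 26.8, 26.9 and 21.1 CPM in Young TBI, at 22.2, 25.8 and 57.2 CPM in the Aged Sham libraries and at 23.6, 25.3 and 19.6 CPM in Aged TBI. A single library, Aged Sham 3, lay above all others. The age difference among sham mice was 0.58 ± 0.30 (adjusted p = 0.249) and 0.04 without Aged Sham 3, while without Aged Sham 1 it was called (0.82, adjusted p = 0.0765). Among injured mice it was −0.13 ± 0.30.

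**Figure D4:**
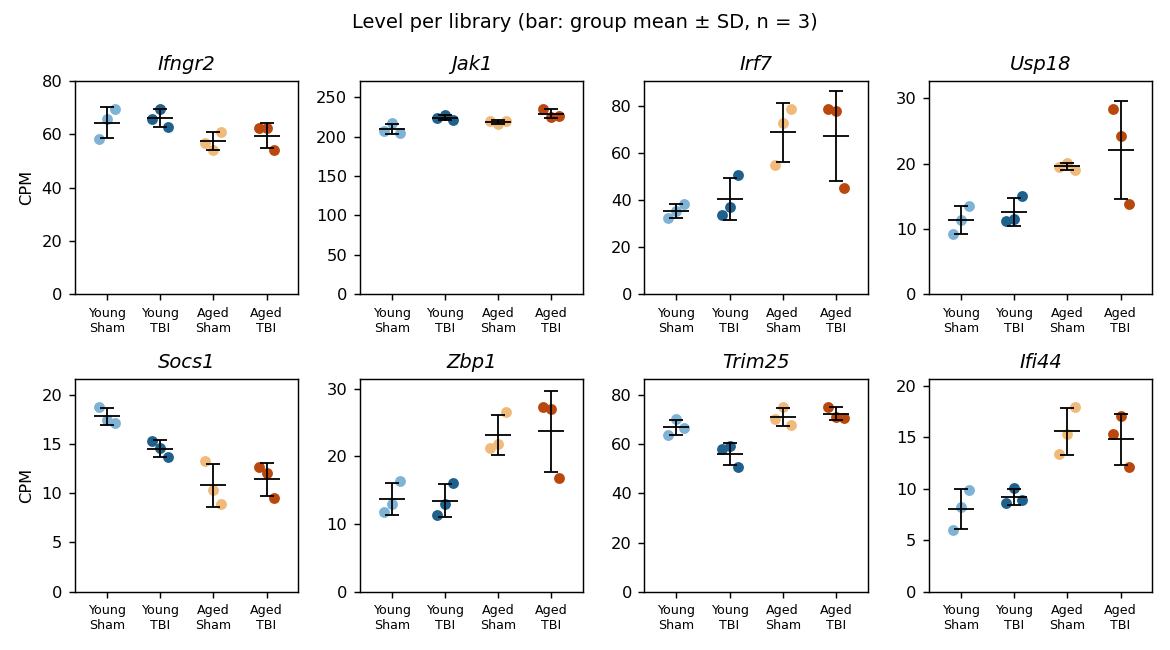
CPM per library (points) of 8 of the genes in the 4 groups, with the group mean and SD (n = 3), on axes that start at 0. Ifngr2 and Jak1 are nearly level, Irf7, Usp18, Zbp1 and Ifi44 are higher in the aged groups with 1 Aged TBI library below the other 2, Socs1 is highest in Young Sham (17.1 to 18.8 CPM), and Trim25 is lowest in Young TBI (50.8 to 59.2 CPM).

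All 5 nucleic acid sensors rose with age among injured mice and 4 of them among sham mice, with medians of 0.51 and 0.53. The shares of all genes called higher were 9.92% and 7.89%. Zbp1, a sensor of Z-form nucleic acid that can start necroptosis, was at 11.8, 12.9 and 16.3 CPM in Young Sham, at 11.3, 12.9 and 16.1 CPM in Young TBI, at 21.3, 21.8 and 26.6 CPM in the Aged Sham libraries and at 27.4, 27.0 and 16.8 CPM in Aged TBI. Aged libraries did not overlap young ones, though Aged TBI 3 was only just above Young TBI 3. The rise was 0.76 ± 0.19 (adjusted p = 0.031, and 0.105 without Young Sham 1) and 0.83 ± 0.20 (adjusted p = 0.0181), the largest of the 41 genes among injured mice. Tlr7, an endosomal receptor for single-stranded RNA, was at 13.2, 13.0 and 12.4 CPM, at 13.9, 14.3 and 18.9 CPM, at 17.0, 20.7 and 22.2 CPM and at 26.1, 21.2 and 19.2 CPM. Young TBI lay above Young Sham without overlap, and the aged libraries above the young ones of the same procedure. Tlr7 rose by 0.63 ± 0.15 (adjusted p = 0.0211) and by 0.51 ± 0.15 (adjusted p = 0.0399, up to 0.158 without Young TBI 1 or 2 or Aged TBI 1).

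Dhx58 (LGP2) and Ifih1 (MDA5) are cytoplasmic helicases that sense double-stranded RNA. Dhx58 was at 16.2, 15.3 and 15.1 CPM in Young Sham, at 14.5, 15.2 and 17.9 CPM in Young TBI, at 22.2, 22.6 and 22.6 CPM in the Aged Sham libraries and at 27.2, 25.7 and 18.2 CPM in Aged TBI. Its groups of different age did not overlap, and it rose by 0.53 ± 0.13 (adjusted p = 0.0279, and 0.103 without Young Sham 3) and by 0.59 ± 0.13 (adjusted p = 0.0149). Ifih1 rose by 0.34 ± 0.09 (adjusted p = 0.0303, and 0.103 without Young Sham 1) and by 0.48 ± 0.09 (adjusted p = 0.00532). Tlr3, the endosomal receptor for double-stranded RNA, was at 17.1, 18.3 and 18.8 CPM, at 14.8, 18.8 and 17.0 CPM, at 22.0, 19.9 and 20.0 CPM and at 21.0, 23.6 and 21.6 CPM. Its aged libraries also lay above the young ones, by 0.19 ± 0.09 among sham mice (adjusted p = 0.227) and 0.38 ± 0.09 among injured mice (adjusted p = 0.0214, and 0.1 without Young TBI 1). The interaction of Tlr3 was 0.19 ± 0.13 (adjusted p = 0.756).

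Of the 7 ISG15, ubiquitin and ADP-ribose genes, 5 rose among sham mice and 7 among injured mice, against 7.89% and 9.92% of all genes. Isg15, the ubiquitin-like protein that is joined to others during the response, was at 17.0, 20.4 and 25.7 CPM in Young Sham, at 18.6, 24.5 and 26.5 CPM in Young TBI, at 36.7, 32.4 and 31.4 CPM in the Aged Sham libraries and at 40.5, 39.8 and 27.3 CPM in Aged TBI. The ages did not overlap, with Aged TBI 3 closest to the young libraries. Isg15, whose promoter holds the 3 overlapping matches above, rose by 0.67 ± 0.18 (adjusted p = 0.0369, up to 0.124 without Young Sham 1 or 2) and by 0.63 ± 0.18 (adjusted p = 0.0376, up to 0.158 without Young TBI 1 or Aged TBI 1 or 2). Trim30a, a TRIM protein that restrains Toll-like receptor signalling in mice, was at 22.2, 22.6 and 27.3 CPM, at 25.5, 26.9 and 27.9 CPM, at 38.9, 36.6 and 41.8 CPM and at 44.4, 41.8 and 31.6 CPM. It did not overlap between ages and rose by 0.70 ± 0.12 (adjusted p = 0.00547, the smallest of the 41 genes among sham mice) and by 0.56 ± 0.12 (adjusted p = 0.0124). Both calls of Trim30a were kept in all 12 fits that left out 1 library.

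Trim25 (chr11:88999376-89020293, plus strand), a ubiquitin and ISG15 ligase that acts on the sensor RIG-I, was lowest in injured young mice. It was at 63.7, 70.1 and 66.7 CPM in Young Sham, at 57.9, 59.2 and 50.8 CPM in Young TBI, at 70.2, 75.0 and 67.8 CPM in the Aged Sham libraries and at 75.4, 71.1 and 70.6 CPM in Aged TBI. The 3 Young TBI libraries lay below the 9 others, and Aged TBI 3 was not set apart for this gene. Trim25 was 0.37 ± 0.07 higher in aged injured mice (adjusted p = 0.00593, kept in all 12 fits that left out 1 library) and 0.09 ± 0.07 in aged sham mice (adjusted p = 0.473). The difference of the age effects was 0.28 ± 0.10 and was not called (unadjusted p = 0.0128, adjusted p = 0.643).

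Dtx3l and Parp9 form a ubiquitin ligase complex and are neighbours on chromosome 16, where 458 bases of their exons overlap on opposite strands, so that their counts may not be separate. Dtx3l was at 27.7, 33.8 and 31.4 CPM in Young Sham, at 31.3, 33.5 and 30.9 CPM in Young TBI, at 39.1, 36.6 and 39.1 CPM in the Aged Sham libraries and at 42.8, 40.0 and 33.5 CPM in Aged TBI. Groups of the same procedure did not overlap between ages, but Aged TBI 3 was nearly level with Young TBI 2 and lay below Young Sham 2. Dtx3l rose by 0.30 ± 0.09 and 0.28 ± 0.10 (adjusted p = 0.0659 and 0.0721) and Parp9 by 0.27 ± 0.09 and 0.25 ± 0.09 (adjusted p = 0.0665 and 0.0795). The sham call of Dtx3l was lost without Young Sham 1, Young Sham 3 or any single Aged Sham library (adjusted p up to 0.2), and that of Parp9 without any single Young Sham library, Aged Sham 2 or Aged Sham 3 (up to 0.193). Among injured mice that of Dtx3l was lost without Young Sham 3, any single Young TBI library, Aged TBI 1 or Aged TBI 2 (up to 0.251) and by DESeq2 (0.106). That of Parp9 was lost when any single young library, Aged Sham 2, Aged TBI 1 or Aged TBI 2 was left out (up to 0.266), by DESeq2 (0.119), with a replicate block (0.115) and with the injured groups alone (0.103). Parp12, a mono-ADP-ribosyltransferase, rose by 0.21 ± 0.05 (adjusted p = 0.0277, and 0.108 with the sham groups alone) and by 0.38 ± 0.05 (adjusted p = 0.00172, the smallest of the 41 genes among injured mice). Parp14, a related transferase, differed by 0.29 ± 0.10 (adjusted p = 0.101, and 0.0953 by DESeq2) and rose by 0.41 ± 0.10 among injured mice (adjusted p = 0.0254).

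The 12 other induced effectors were divided, with 6 rising in each comparison and 4 rising in both. The shares of all genes called higher were 7.89% among sham and 9.92% among injured mice. Ifi44 (chr3:151730922-151749960, minus strand), an interferon-induced cytoplasmic protein, was at 6.01, 8.22 and 9.85 CPM in Young Sham, at 8.62, 10.1 and 8.93 CPM in Young TBI, at 13.4, 15.4 and 18.0 CPM in the Aged Sham libraries and at 15.3, 17.1 and 12.2 CPM in Aged TBI. Every aged library was above every young one. Ifi44 was 1.93-fold higher among sham mice (0.95 ± 0.18, adjusted p = 0.00864) and 0.68 ± 0.18 higher among injured mice (adjusted p = 0.0288, and 0.113 without Young TBI 1). Rtp4, a chaperone of membrane receptors, was at 22.2, 25.5 and 24.2 CPM, at 24.2, 25.4 and 30.9 CPM, at 34.3, 36.5 and 36.7 CPM and at 41.7, 45.8 and 26.2 CPM. The sham groups did not overlap, and Aged TBI 3 lay within Young TBI. Rtp4 rose by 0.58 ± 0.17 (adjusted p = 0.0494, up to 0.141 without Young Sham 1 or 3 or Aged Sham 2) and by 0.51 ± 0.17 (adjusted p = 0.0662, up to 0.218 without Young TBI 1 or 2 or Aged TBI 1 or 2 and 0.119 with the injured groups alone).

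Rsad2 (viperin) and Cmpk2 lie next to each other on chromosome 12 and both act on nucleotides, viperin by making a chain-terminating nucleotide. Rsad2 was at 23.1, 23.7 and 19.3 CPM in Young Sham, at 20.7, 21.3 and 25.0 CPM in Young TBI, at 29.2, 36.9 and 32.2 CPM in the Aged Sham libraries and at 31.0, 33.9 and 19.9 CPM in Aged TBI. Cmpk2 was at 19.7, 20.8 and 18.3 CPM, at 18.3, 19.4 and 18.8 CPM, at 29.9, 25.2 and 25.1 CPM and at 35.2, 33.2 and 20.0 CPM. Sham groups did not overlap for either gene, and Aged TBI 3 was below all Young TBI libraries for Rsad2 and just above them for Cmpk2. Rsad2 rose among sham mice (0.57 ± 0.17, adjusted p = 0.0547, up to 0.195 without Young Sham 1 or 3 or Aged Sham 2) and differed by 0.35 ± 0.17 among injured mice (adjusted p = 0.207, and 0.0261 without Aged TBI 3). Cmpk2 differed by 0.44 ± 0.17 among sham mice (adjusted p = 0.123, and 0.0105 without Aged TBI 3) and rose among injured mice (0.65 ± 0.17, adjusted p = 0.0274, and 0.104 without Aged TBI 1). The interaction was called for neither gene (adjusted p = 0.858 and 0.872).

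Bst2 (tetherin), which holds budding virus at the cell surface, rose by 0.54 ± 0.14 (adjusted p = 0.0355, up to 0.122 without Young Sham 1 or Aged Sham 2) and by 0.51 ± 0.14 (adjusted p = 0.0376, up to 0.133 without Young TBI 1 or 2 or Aged TBI 1 or 2). Xaf1, a pro-apoptotic protein, rose by 0.45 ± 0.14 and 0.40 ± 0.14 (adjusted p = 0.0642 and 0.0866), respectively. The first call was lost without Young Sham 2 or 3 or Aged Sham 2 or 3 (up to 0.182). The second was lost when any single young library, Aged Sham 2, Aged TBI 1 or Aged TBI 2 was left out (up to 0.282), with a replicate block (0.114) and with the injured groups alone (0.139). Lgals3bp, a secreted glycoprotein that binds galectin-3, was at 206, 181 and 229 CPM in Young Sham, at 207, 203 and 217 CPM in Young TBI, at 240.1, 289.7 and 256 CPM in the Aged Sham libraries and at 260.0, 248 and 204 CPM in Aged TBI. The sham groups did not overlap but the injured groups did, and Lgals3bp rose by 0.35 ± 0.10 among sham mice (adjusted p = 0.0547, up to 0.181 without Young Sham 1 or 2 or Aged Sham 2 and 0.102 with the sham groups alone) and differed by 0.18 ± 0.10 among injured mice (adjusted p = 0.277). Eif2ak2 (PKR), the kinase that stops translation on sensing double-stranded RNA, differed by 0.16 ± 0.09 (adjusted p = 0.275) and rose by 0.31 ± 0.09 among injured mice (adjusted p = 0.0359, up to 0.139 without Young TBI 1 or 2 or Aged TBI 1). The rest were called in neither comparison. Isg20, an RNA exonuclease, differed by 0.19 ± 0.15 and 0.33 ± 0.15, and Samd9l, which restricts poxviruses, by 0.12 ± 0.10 in both. Ifi27, a small membrane protein, differed by 0.10 ± 0.12 and −0.12 ± 0.12, and Ifi35, a partner of the protein NMI, by 0.02 ± 0.11 and 0.16 ± 0.11.

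Levels of different genes can be set side by side only per exon length. Per kilobase of exon, Young Sham means were highest for Ifi27 (129 CPM per kilobase), Bst2 (87.7) and Lgals3bp (72.1) and lowest for Ifi44 (1.31), Tlr7 (3.15) and Tlr3 (3.46). The receptor chains and kinases ran from 9.50 for Tyk2 to 52.6 for Ifngr1 on the same scale. Ifi27, at the top, was called in no comparison, while Bst2 and Ifi44, near opposite ends, rose in both age comparisons. Exons of some members overlap those of another gene in the GENCODE M21 annotation, over 16.8% of the exon bases of Ifi35, 14.1% of Irf5, 13.9% of Rtp4 and 9.46% of Ifnar2, and Trim30a and Ifi27 have close paralogs, so their counts may hold or lack reads of those genes.

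No gene of the 41 was called for injury at either age. In young mice edgeR called 0, against 0.00548% of all genes, with 2 at an unadjusted p under 0.05, namely Trim25 (−0.25 ± 0.07, unadjusted p = 0.0031) and Jak1 (0.10 ± 0.04, unadjusted p = 0.0498), both with an adjusted p of 1. In aged mice it called 0, against 1.65% of all genes, with 0 at an unadjusted p under 0.05, and the interaction called 0, against 0% of all genes, with Trim25 alone at an unadjusted p under 0.05. DESeq2 called 0 of the 41 in each of these comparisons. Median log2 fold changes were 0.02 for injury in young and 0.03 for injury in aged mice. The widest differences were those of Socs1 in young mice (−0.29 ± 0.14) and Socs3 in aged mice (−0.61 ± 0.29, adjusted p = 0.369), where Aged Sham 3 held the high value. For Irf7 the 95% interval of the injury effect ran from −0.31 to 0.69 in young and from −0.50 to 0.44 in aged mice.

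Transcripts of interferons themselves were near or below detection. Of 21 interferon genes in the table, 15 had no count in any library and none passed the filter. The highest count of any of them in a library was 4, for Ifng, whose level was at most 0.383 CPM in any library. A count of 0 allows up to 3 counts, or 0.183 to 0.383 CPM, for counting error only. Of 17 other receptor, kinase, STAT and regulator genes tested, 3 were higher and 3 lower among aged sham mice, and 4 higher and 1 lower among aged injured mice. Over all genes the shares were 7.89% higher and 7.71% lower among sham mice, and 9.92% and 10.3% among injured mice. Stat4, which signals from interleukin-12 receptors, rose by 1.11 ± 0.29 and 0.87 ± 0.29, Irf4, a factor of plasma cells, by 1.22 ± 0.27 and 1.14 ± 0.27, and the phosphatase gene Ptpn6 by 0.41 ± 0.12 and 0.32 ± 0.12. Pias3, an inhibitor of STAT3, fell by 0.22 ± 0.06 and 0.29 ± 0.06 on the log2 scale. Irf2bp1 and Irf2bp2, partners of IRF2, fell by 0.35 ± 0.10 and 0.44 ± 0.13 among sham mice and were at −0.19 ± 0.10 and −0.06 ± 0.13 among injured mice. Pias1 was at 0.04 ± 0.06 among sham mice and rose by 0.21 ± 0.06 among injured mice. Jak2, the other kinase of the interferon-gamma receptor, was not called (0.07 ± 0.07 and 0.10 ± 0.07). Of 17 adaptors and kinases of nucleic acid sensing, 2 were higher among sham mice (Mlkl, which carries out necroptosis, 0.84 ± 0.16, and Tmem173, the adaptor STING, 0.28 ± 0.09). Among injured mice 1 was higher (Cgas, the DNA sensor upstream of STING, 0.54 ± 0.16) and 1 lower (the adaptor gene Traf3, −0.22 ± 0.08). The counts for these adaptors and kinases lie near the shares of all genes.

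Other interferon-induced families give a scale for these differences. Of 16 IFIT, MX and OAS genes, 14 rose among sham mice and 15 among injured mice, with medians of 0.80 and 0.74. Of 17 tested guanylate-binding and immunity-related GTPase genes 6 and 4 rose, with medians of 0.46 and 0.32. The shares of all genes called higher were 7.89% and 9.92%. The median of the 35 genes other than receptor chains and kinases was 0.30 and 0.35. These medians are descriptions, and the difference between the lists was not tested.

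Calls with age differed between the lists of immune cell markers. Over all genes, 7.89% were called higher and 7.71% lower among sham mice, and 9.92% and 10.3% among injured mice. Of 10 T cell markers, 7 were higher and Cd4 lower among sham mice, and 8 were higher among injured mice, while their summed level, in which Thy1 and Cd4 weigh most, was 109 to 123 CPM in Young Sham, 117 to 124 in Young TBI, 113 to 129 in Aged Sham and 106 to 145 in Aged TBI. Of 10 macrophage markers, 1 and 2 were higher, with sums of 1112 to 1170.0, 1164 to 1250.0, 1185 to 1434 and 1167 to 1646 CPM in the same order. Of 8 neutrophil markers, 2 and 5 were higher, with sums of 87.7 to 373 CPM in Young Sham, 130 to 401 in Young TBI, 310.2 to 588 in Aged Sham and 427 to 769 in Aged TBI. Of 6 plasma cell markers, 3 and 4 were higher, with sums of 112 to 152 CPM in young and 229 to 431 CPM in aged libraries. Of 7 B cell markers 1 and 3 were higher, and of 7 dendritic cell markers 2 and 3. Of 6 monocyte markers, 2 were higher and 1 lower among sham mice and 3 higher among injured mice, and of 5 tested NK cell markers 2 were higher and 1 lower, and 2 higher and 2 lower. Of 6 fibroblast markers, 4 fell in each comparison, with sums of 14150 to 18190 CPM in young and 8446 to 9983 CPM in aged libraries. Of 6 markers of plasmacytoid dendritic cells, which make type I interferon, 0 were called in either comparison by edgeR (0 and 1 at an unadjusted p under 0.05), with sums of 253 to 305 CPM over all libraries. Abundant genes weigh most in such a sum and less in the mean log2 level of the list, which was 2.95 to 3.79. Log2 fold changes of these markers ran from −0.10 to 1.14 among sham mice and from −0.19 to 1.27 among injured mice. The narrow range of the sum therefore does not show that each marker was level. No T cell, macrophage, neutrophil or plasmacytoid dendritic cell marker was at 0 in any library. Aged TBI 3 had the lowest sum of its group for the T cell (106 against 139 and 145 CPM), macrophage (1167 against 1646 and 1353 CPM), monocyte (381 against 477 and 476 CPM), plasma cell (229 against 431 and 269 CPM), neutrophil (427 against 769 and 751 CPM) and NK cell lists (6.39 against 8.71 and 9.73 CPM), and not for the B cell and dendritic cell lists. Aged TBI 3 was also lowest for the fibroblast list (8446 against 9878 and 9983 CPM). Its sum was not lowest for the plasmacytoid dendritic cell list (280 against 276 and 305 CPM). Its sum was highest for blood endothelium (1332 against 1072 and 1250 CPM). By mean log2 level, however, Aged TBI 3 was lowest of its group for the plasmacytoid dendritic cell list (3.09 against 3.33 and 3.79). The same held for the dendritic cell list (3.11 against 3.21 and 3.15), but not for the B cell list (2.98 against 3.26 and 1.93). The part of these cell types in the differences above was not tested.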

How the data were processed

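The deposited table held raw counts of reads per gene in 12 libraries of bulk RNA from dorsal meninges, each from a pool of mice. The authors aligned paired-end reads to the mouse genome mm10 with HISAT2, removed duplicated and uninformative reads, and counted with HTSeq. Tool versions, the annotation release and the strand setting are not given in the sources used here. Removing duplicates can lower the counts of short, abundant transcripts most.

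Of 55385 rows, 19413 had no count and 18238 passed edgeR's filter on low counts, with 99.81% of all counts. One edgeR quasi-likelihood fit (edgeR 4.0.16, R 4.3.3) of all 12 libraries, scaled by TMM, gave the age difference in sham and in injured mice, the injury difference at each age, and the interaction. P-values were adjusted by Benjamini-Hochberg over all genes tested and called under 0.1, the threshold of the study, whose own test was DESeq2. CPM used TMM-scaled library sizes. Alternatives were other scalings, filters, a threshold of 0.05, the compared groups alone, a replicate block, each library left out, and DESeq2 1.42.0. The procedure was tested on simulated data. Of 1.5-fold changes, 50.7% to 56.7% were called in the comparisons of 2 groups and 23.9% in the interaction. Of 2-fold changes, 70.1% to 86.6% and 62.7% were called. False calls made up 7.01% to 11.9% of the calls. Each simulated comparison changed 66 or 67 genes at each fold and held no outlying library. Far more genes were called with age in the real data, so these rates may not hold there. Lengths and coordinates came from GENCODE M21 (GRCm38) and promoters from RefSeq.

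The members and lists were chosen with earlier results of these data known. CPM per library was printed for the 3 members of each role with the largest age difference in sham mice (all members of roles with 4 or fewer), and for up to 6 members called in a single age comparison. Bst2, Xaf1, Eif2ak2 and the rest are given by log2 fold change, and of other pathway genes mainly those called. A gene of the pathway list is not reported here. P-values measure the spread between pools.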

Additional observations from a re-analysis of the deposited data

How the results depend on the processing

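At an adjusted p under 0.05, 13 genes were called among sham mice, all of them other than receptor chains and kinases, and 18 among injured mice. Over the fits that left out 1 library the count ran from 9 to 23 among sham mice and from 9 to 24 among injured mice, the same for the 35 genes other than receptor chains and kinases. Over all genes these fits gave 1226 to 3644 calls among sham mice and 2117 to 4495 among injured mice. Other settings gave 20 to 23 and 20 to 23 calls. With library totals alone the receptor chains and kinases had 1 call among sham mice (Tyk2), the medians of all genes were 0.05 and 0.09, and over all genes 1943 were higher and 987 lower among sham mice, and 3195 and 1257 among injured mice, against 1439 and 1406, and 1809 and 1874, with TMM. Of the calls, 7 of 20 and 7 of 22 were kept in all 12 fits that left out 1 library, and other genes were called in at least 1 setting in each comparison. No member was called for injury or the interaction under any alternative. Over all genes, injury in aged mice gave 301 calls, 636 by DESeq2, 706 with no filter, 70 with the 2 groups alone, and 0 to 333 with 1 library left out.

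Values near 0 changed sign. Irf2 among sham mice was −0.000514 by DESeq2, and with library totals alone Ifnar1 and Tyk2 among injured mice were 0.045 and 0.031. With 1 library left out, values among sham mice ran from −0.044 to 0.13 for Ifngr1, from −0.096 to 0.066 for Irf2 and from −0.091 to 0.086 for Ifi35. Among injured mice they ran from −0.11 to 0.013 for Ifnar1, from −0.11 to 0.10 for Irf1 and from −0.011 to 0.26 for Irf5. The injury difference in aged mice ran from −0.17 to 0.18 for Irf7 and from −0.040 to 0.42 for Usp18. The cause was not tested.

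A replicate block left 20 calls among sham mice (19 kept) and 21 among injured mice (20 kept, and Socs1 lower), with 0 for injury and the interaction, and 56 over all genes for injury in aged mice. Deviations of libraries with the same number had correlations of −0.20 to 0.14 (median −0.02), with 1 of 18 over 0.1, and 0 of 12 libraries correlated best with their own number. Same-number pairs of sham and injured libraries were at 0.08, 0.14 and 0.05 in young mice and at −0.12, −0.02 and −0.07 in aged mice. With 3 libraries per group these values cannot settle whether the numbers pair samples. Pools of mice, 3 libraries per group and a mixed tissue limit what could be detected.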
